A study of Mus musculus with 1989 samples.

Results

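The regions described here are the peaks of open chromatin that lie in the 3 loci encoding the T cell receptor chains, measured in single mouse thymocytes. They were chosen by position in the mouse genome build GRCm38: every peak of the chromatin table whose start lies between 52.4 and 54.3 Mb of chromosome 14 (the nested Tra and Trd loci), between 40.8 and 41.7 Mb of chromosome 6 (Trb) or between 19.1 and 19.5 Mb of chromosome 13 (Trg). This gave 518 of the 138317 peaks, 335 in Tra/Trd, 141 in Trb and 42 in Trg. No value of accessibility was used to choose them.

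Open chromatin was measured by scATAC-seq, in which a transposase cuts accessible DNA in each cell and the cuts are counted in peaks. All cells came from the thymus of male mice aged 7 weeks, of the strain C57BL/6 with no transgene, knockout or treatment named, and no label ties a cell to an animal. Cells labelled DN (double-negative for CD4 and CD8, 182 cells), DP (double-positive, 125 cells), CD4 (119 cells) and CD8 (116 cells) were sorted populations, and 1084 cells labelled T were total thymocytes taken without a named sort. Each of these 5 groups was therefore 1 sample, so no test between them was possible, and every interval given here is an exact 95% interval that covers counting error only.

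A T cell receptor gene is assembled in the developing thymocyte when the RAG recombinase joins separate variable (V), diversity (D) and joining (J) segments at short recombination signals. Trb, Trg and Trd are joined at the DN stage, and Tra is joined at the DP stage, when V and J segments are brought together and the Trd segments lying between them are deleted. Each locus is governed by an enhancer near its constant gene, namely the alpha enhancer between Trac and the housekeeping gene Dad1, the beta enhancer between Trbc2 and the inverted segment Trbv31, the delta enhancer between Trdj2 and Trdc, and enhancers after the Trg constant genes. Because joining removes DNA, a low count in a V, D or J peak can mean closed chromatin or lost DNA, and the counts cannot tell these apart.

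The sequences below are the central 300 bases of 5 of the peaks on which the results turn, from RefSeq GRCm38.p6, read on the plus strand. They are the peak between Trac and Dad1 at chr14:54227460-54227759, the peak between Trbc2 and Trbv31 at chr6:41554444-41554743, the peak over Trbv31 at chr6:41558311-41558610, and the peaks after Tcrg-C1 at chr13:19219491-19219790 and after Tcrg-C2 at chr13:19300464-19300763. Capitals mark matches, on either strand, to the following letters. TGACGTCA is the element bound by CREB and ATF factors. AACCACA is the core bound by Runx factors, which act throughout T cell development. CTTTGA is bound by Tcf7 and Lef1, the Wnt-pathway factors of early thymocytes. CAGCTG is an E box, bound by several helix-loop-helix factors. CACCTG is the E box form bound by the E proteins of lymphocytes. AGATAA is bound by the Gata factors, of which thymocytes use Gata3. CACAGTG is the heptamer of a recombination signal, where the RAG recombinase cuts. CCACTAGGG, the core of the Ctcf site, was also searched. A match is a description of these letters, not a shown binding site.

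Trac-Dad1 peak: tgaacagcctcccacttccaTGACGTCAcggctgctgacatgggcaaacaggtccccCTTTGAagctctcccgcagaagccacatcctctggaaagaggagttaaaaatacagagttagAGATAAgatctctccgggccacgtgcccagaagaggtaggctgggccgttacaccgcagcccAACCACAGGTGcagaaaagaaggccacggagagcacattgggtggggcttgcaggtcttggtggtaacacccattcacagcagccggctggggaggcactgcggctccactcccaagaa

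Trbc2-Trbv31 peak: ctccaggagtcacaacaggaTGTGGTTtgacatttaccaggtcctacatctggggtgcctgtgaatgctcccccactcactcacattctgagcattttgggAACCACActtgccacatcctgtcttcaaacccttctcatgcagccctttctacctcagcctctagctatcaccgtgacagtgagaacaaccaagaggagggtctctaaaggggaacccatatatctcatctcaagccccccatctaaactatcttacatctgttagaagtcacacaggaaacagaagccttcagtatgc

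Trbv31 peak: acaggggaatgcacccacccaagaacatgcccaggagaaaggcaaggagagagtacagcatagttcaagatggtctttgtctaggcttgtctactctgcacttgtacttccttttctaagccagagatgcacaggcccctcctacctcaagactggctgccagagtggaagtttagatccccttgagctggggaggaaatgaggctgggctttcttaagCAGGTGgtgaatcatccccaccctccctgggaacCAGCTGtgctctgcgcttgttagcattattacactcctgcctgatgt

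peak 3' of Tcrg-C1: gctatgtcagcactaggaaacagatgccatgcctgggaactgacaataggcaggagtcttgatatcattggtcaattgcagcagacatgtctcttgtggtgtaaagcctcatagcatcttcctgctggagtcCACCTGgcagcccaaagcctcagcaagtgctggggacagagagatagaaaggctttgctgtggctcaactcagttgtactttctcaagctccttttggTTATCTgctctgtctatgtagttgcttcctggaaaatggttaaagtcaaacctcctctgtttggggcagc

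peak 3' of Tcrg-C2: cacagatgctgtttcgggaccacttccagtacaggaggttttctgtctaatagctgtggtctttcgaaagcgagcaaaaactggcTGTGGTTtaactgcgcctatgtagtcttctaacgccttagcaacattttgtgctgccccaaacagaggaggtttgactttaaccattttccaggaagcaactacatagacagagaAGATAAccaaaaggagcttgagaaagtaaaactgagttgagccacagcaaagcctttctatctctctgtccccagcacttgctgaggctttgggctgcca

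The Trac-Dad1 peak held 5 matches, 1 each of the CREB/ATF, Tcf/Lef, Gata and Runx letters and of CACCTG in this order, the last of which overlaps the Runx match and lies on the minus strand. TGACGTCA was rare, with a match in the central 300 bases of 3 of the 518 peaks (0.579%) and of 0.737% of all 138317 peaks. The Trbc2-Trbv31 peak held 2 matches to AACCACA, on opposite strands, against 14.1% of the 518 peaks and 10.7% of all peaks with any match. The peaks after Tcrg-C1 and Tcrg-C2 shared, within their central 500 bases, an identical run of 148 bases on opposite strands, so that reads from these copies may have been divided between them or lost in mapping, and their values are uncertain for that reason. Over the 518 peaks, AGATAA was found in 21.2% against 12.1% of all peaks, CACAGTG in 19.3% against 9.81%, CAGCTG in 24.1% against 20.1%, CACCTG in 28.0% against 28.0%, CTTTGA in 21.4% against 20.1% and CCACTAGGG in 0.193% against 0.501%. The heptamer CACAGTG was found in 23.3% of the Tra/Trd peaks, 13.5% of the Trb peaks and 7.14% of the Trg peaks.

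The alpha J segments are shown by 3 of the segments nearest to the highest single-cell counts described further on, each with the 28 bases before it, on the plus strand, which is their coding strand. Capitals mark the position of the heptamer, directly before the segment. The segments lie at chr14:54171772-54171856, chr14:54206525-54206610 and chr14:54198762-54198846, with the 28 bases included. Of 51 annotated alpha J segments, 15 had CACTGTG, the reverse complement of the heptamer, directly before them, and 46 shared its last 3 bases.

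Traj47: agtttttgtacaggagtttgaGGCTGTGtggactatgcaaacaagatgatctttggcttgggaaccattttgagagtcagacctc

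Traj12: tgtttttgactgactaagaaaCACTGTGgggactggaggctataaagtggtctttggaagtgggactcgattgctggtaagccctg

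Traj21: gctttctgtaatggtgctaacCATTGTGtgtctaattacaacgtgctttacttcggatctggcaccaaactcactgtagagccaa

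The depth differed between and within sorts. The 5 groups held 1108749 (DN), 478264 (DP), 558091 (CD4), 494645 (CD8) and 6402950 (T) counts in peaks, with a median per cell of 3377.5, 3866, 2571, 3935.5 and 5792. The numbers in the cell labels fall into series: DN cells came from series 1000, 2000, 4000, 31000 and 32000, DP cells from 3000, 4000 and 31000, and CD4 and CD8 cells from 4000 and 31000, so that only series 4000 and 31000 hold all 4 sorts. Series 31000 was shallow, with medians of 1332 counts in CD4 and 1262.5 in CD8 cells. What the series stand for is not given in the sources used here. Of the marker lists, the DP list was highest in DP for 5 of 6 genes, the CD4 list in CD4 for 5 of 6 and the CD8 list in CD8 for 3 of 8, while the DN list was highest in DN for 1 of 5, so the DN label was not borne out by these markers.

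Peaks were 4000 bp wide and overlapped, so sums over a locus or a segment class use the 169 of the 518 peaks that do not overlap one another and are given per 10000 counts in the 62530 non-overlapping peaks of the genome. Values of a single peak are given per 10000 counts in all peaks. The median peak held 35 counts over all 5 groups and 10 over the 4 sorts, 4 peaks held none in the 4 sorts, and the range over all groups was 5 to 1844. For a sum of non-overlapping peaks, a count of 0 allows up to 0.0454 per 10000 in DN, 0.105 in DP, 0.0880 in CD4, 0.102 in CD8 and 0.0073 in T.

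The 3 loci differed in how their signal moved between sorts. Over all cells, Trb was lowest in DN and with all counts differed less than the other loci, with 7.71 (7.05-8.41) per 10000 in DN, 9.83 (8.72-11.1) in DP, 9.62 (8.61-10.7) in CD4, 9.07 (8.01-10.2) in CD8 and 9.65 (9.35-9.96) in T. Trg was highest in DN, at 4.16 (3.69-4.69), against 1.68 (1.24-2.23) in DP, 2.35 (1.86-2.92) in CD4, 1.73 (1.28-2.27) in CD8 and 1.95 (1.82-2.09) in T. The DN interval for Trg did not overlap that of any other group. Tra/Trd held 12.6 (11.8-13.5) in DN, 18.3 (16.8-19.9) in DP, 24.6 (23.0-26.4) in CD4, 12.1 (10.9-13.5) in CD8 and 15.9 (15.5-16.3) in T. Much of the spread in Tra/Trd, the CD4 excess above all, came with large counts in few cells. With each count of a peak in a cell set to at most 1, Tra/Trd held 12.3, 15.1, 13.7, 12.4 and 13.7 per 10000 in the same order, with DP over DN at 1.23 (1.08-1.41), CD8 over DP at 0.817 (0.699-0.955) and CD4 over DP at 0.903 (0.779-1.05), whereas Trg still held 3.99 in DN against 1.61 in DP. Within label series 31000 the order turned for all 3 loci. Tra/Trd held 7.74 (5.06-11.3) per 10000 there in DP, the lowest sort, against 11.1 (8.20-14.7) in DN and 10.6 (6.47-16.4) in CD8, and Trb held 6.55 (4.10-9.91) in DP, also the lowest, against 7.18 (4.88-10.2) in DN, 10.3 (7.96-13.1) in CD4 and 12.7 (8.15-18.9) in CD8. DP was the lowest sort of series 31000 in Tra/Trd and Trb with counts of at most 1 too. Trg held 2.08 (0.953-3.96) there in DN, the lowest sort, against 2.38 (1.03-4.69) in DP. CD4 held 2.22 (1.21-3.73) and CD8 2.65 (0.860-6.18), and all 4 intervals overlapped. With counts of at most 1, DN held 2.10 and DP, then the lowest, 1.54. With all counts but without promoter peaks, DN held 0.695 (0.143-2.03) there and DP, again the lowest, 0.298 (0.0075-1.66), on 3 and 1 counts. Across the 36 first label numbers of total thymocytes, each with 23 to 32 cells, Tra/Trd ranged from 10.5 to 26.2 per 10000, Trb from 7.91 to 12.2 and Trg from 1.19 to 2.94. In sums over cells, fewer cells with an open region and less signal per cell cannot be told apart.

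**Figure D1:**
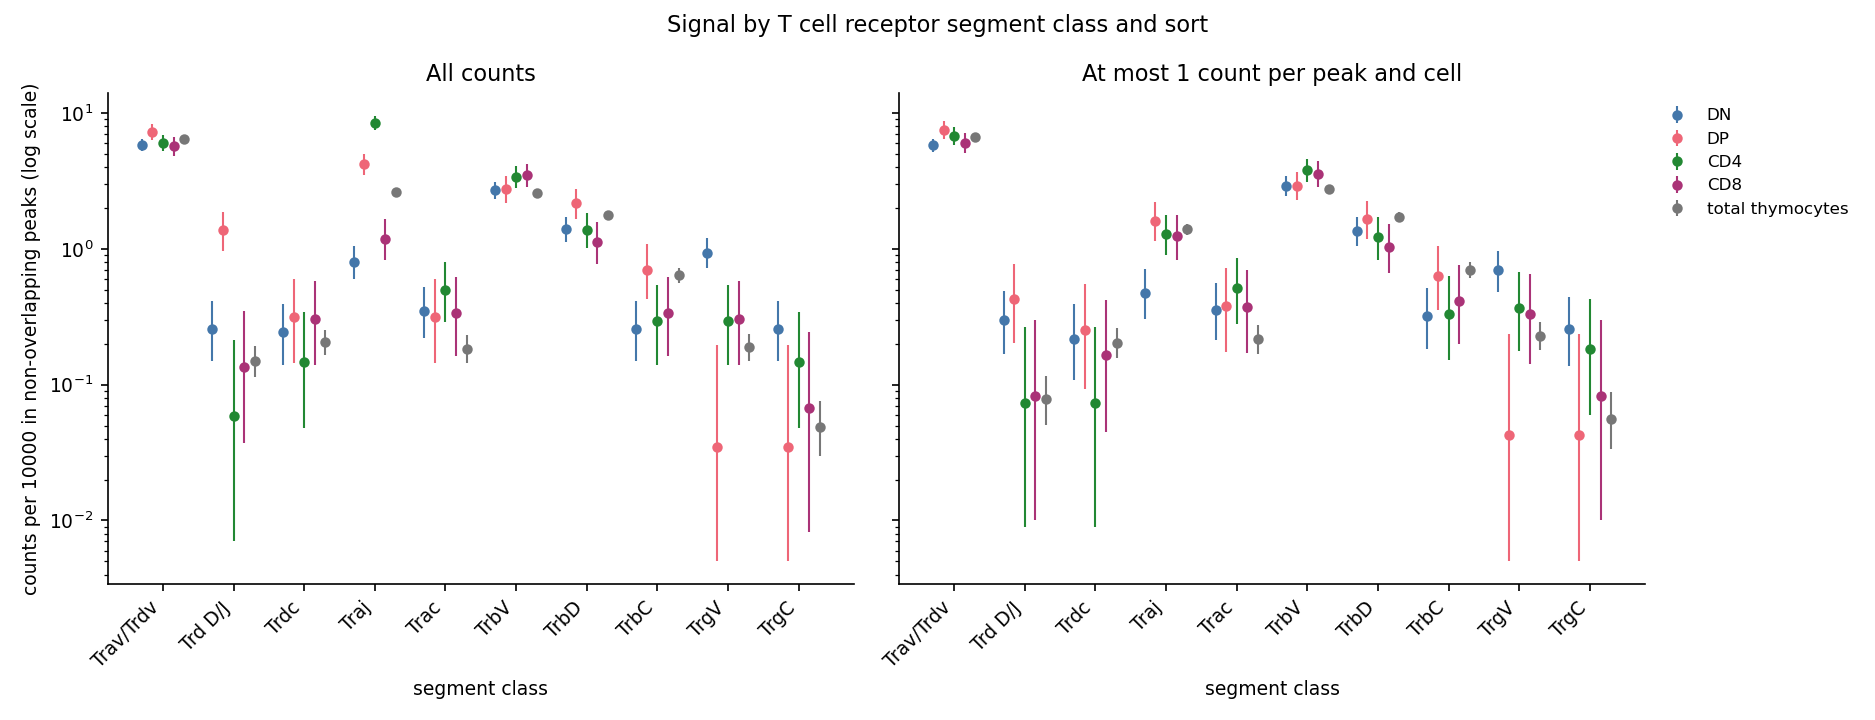
Signal of each segment class of the 3 loci in the 5 groups, per 10000 counts in non-overlapping peaks on a log axis, with all counts on the left and each count set to at most 1 on the right. Points are sums over the cells of a group and bars are exact 95% Poisson intervals, cut off below near the foot of the axis; the Traj class spreads from 0.803 in DN to 8.51 in CD4 on the left and from 0.477 to 1.61 on the right, while TrgV is highest in DN on both sides.

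Single peaks were compared between sorts where both sorts together held 20 or more counts, which left 71 of the 518 peaks for DP against DN, 41 for CD4 against DP, 32 for CD8 against DP and 35 for CD4 against CD8. The remaining peaks were too thin for a ratio. A peak was called where its counts per 10000 differed 2-fold or more. For DP against DN, 14 of 71 peaks were higher in DP, where 12.6% of all peaks were, and 17 of 71 were higher in DN, where 14% of all peaks were. Those higher in DP were 4 Tra/Trd and 10 Trb peaks and no Trg peak, and those higher in DN were 5 Tra/Trd, 3 Trb and 9 Trg peaks. For CD4 against DP, 9 of 41 peaks were higher in CD4 (15.0% of all peaks) and 5 were higher in DP (14.6% of all peaks). For CD8 against DP, 3 of 32 were higher in CD8 (9.36% of all peaks) and 7 were higher in DP (11.7% of all peaks). For CD4 against CD8, 7 of 35 were higher in CD4 (12.8% of all peaks) and 2 were higher in CD8 (10.3% of all peaks). The median log2 ratio over the peaks compared was -0.01 for DP over DN, 0.02 for CD4 over DP, -0.22 for CD8 over DP and 0.22 for CD4 over CD8, against 0.06, 0.00, -0.07 and 0.07 over all peaks. With each count set to at most 1, 8 of 46 peaks were higher in DP (10.3% of all peaks) and 7 were higher in DN (8.6% of all peaks). On that scale 3 of 26 peaks were higher in CD4 than in DP (10.5% of all peaks) and 1 was lower (12.0%), 1 of 24 was higher in CD8 than in DP (5.62%) and 1 was lower (8.66%), and 2 of 25 were higher in CD4 than in CD8 (8.36%) and 0 were lower (7.0%), so the single-positive sorts gave shares near or below those of all peaks. All 8 that were then higher in DP than in DN lay in Trb, and 5 of the 7 higher in DN lay in Trg.

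At the gamma locus DN was high. Of its 10 peaks with 20 or more counts in DN and DP together, 9 were called and all 9 were higher in DN, where 14% of all peaks were. These are not 9 separate regions, since 3 overlap after Tcrg-C2 and 3 after Tcrg-C4, and of the peaks that do not overlap 4 of 5 were higher in DN. One, a peak near Tcrg-V4, had 71 of its 76 DN counts in 1 cell. Within series 4000, and within series 31000 and 32000, 1 Trg peak held 20 or more counts. It was the promoter peak of Stard3nl, a gene at the end of the locus, and was higher in DP. No Trg peak outside promoters held enough counts to be compared there, and the sums outside promoters by series are given below. V segments of Trg, which encode the variable part of the gamma chain, held 62 counts or 0.939 (0.720-1.20) per 10000 in DN, 1 count or 0.0350 (0.0009-0.195) in DP, 10 counts or 0.293 (0.141-0.540) in CD4, 9 counts or 0.305 (0.139-0.578) in CD8 and 77 counts or 0.188 (0.149-0.235) in T. DN stood above every other group, DP was at a single count, and CD4 and CD8 overlapped each other. Of the 62 DN counts, 36 came from series 1000, at 1.78 (1.25-2.47) per 10000. Within series 4000 DN held 0.544 (0.219-1.12), which overlapped DP, CD4 and CD8, and within series 31000 DN held 1 count and CD4 held 3. The ratio of DP to DN was 0.0373 (0.0009-0.215), and it was 0.0609 (0.0015-0.363) with counts of at most 1, where the DN interval overlapped those of CD4 and CD8. Part of the DN total came from few cells: the peak over Trgv2 at chr13:19335240-19339239 held 42 counts in 15 DN cells, 25 of them in 1 cell, and none in DP, 4 in CD4, 3 in CD8 and 20 in T.

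The intervals after the Trg constant genes, where the gamma enhancers lie, were also highest in DN over all cells. In the 10 kb after Tcrg-C2, the non-overlapping peak held 35 counts in DN, 1 in DP, none in CD4, 1 in CD8 and 13 in T, which is 0.530 (0.369-0.737) per 10000 in DN against 0.0350 (0.0009-0.195) in DP. In the 10 kb after Tcrg-C4, the peak held 27, 3, 1, 3 and 50 counts in the same order, 0.409 (0.270-0.595) per 10000 in DN and 0.105 (0.0217-0.307) in DP. In the 10 kb after Tcrg-C1, it held 17, 0, 5, 0 and 13 counts, 0.257 (0.15-0.412) per 10000 in DN. Over all cells, counts in DN were the highest of the 4 sorts at all 3 positions. No peak lay in the 10 kb after Tcrg-C3. The 3 positions together held 1.29 (0.842-1.89) per 10000 in DN cells of series 1000, 2.31 (1.56-3.30) in series 2000 and 0.573 (0.262-1.09) in series 32000. In series 4000 DN held 1.01 (0.538-1.73), above DP, CD4 and CD8 without overlap. In series 31000 DN held 0.232 (0.0059-1.29), on 1 count, below CD8 at 0.530 (0.0134-2.95), also on 1 count. An overlapping peak after Tcrg-C2, chr13:19298408-19302407, held 30 counts in 20 DN cells and none in DP or CD4, at least 4.31-fold higher in DN than in DP against the floor of 3 counts. An overlapping peak after Tcrg-C4, chr13:19354284-19358283, held 27 counts in 21 DN cells, 1 in DP, 9 in CD4 and 2 in CD8. The constant genes themselves were thin, with 17, 1, 5, 2 and 20 counts over 3 peaks.

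One gamma peak was open in CD4 cells too. The peak 2509 bp from Tcrg-V4, chr13:19180466-19184465, held 34 counts in DN (0.307 per 10000), 6 in DP (0.125), 22 in CD4 (0.394), 7 in CD8 (0.142) and 44 in T (0.0687). DN and CD4 were high and DP, CD8 and T low. The counts came from 24 DN and 17 CD4 cells with no more than 3 in a cell. CD4 exceeded DP 3.14-fold (1.24-9.47) and CD8 2.79-fold (1.15-7.72), and in series 4000 alone CD4 exceeded DP 5.81-fold. The sum of the myeloid and dendritic markers, 5 of 6 with peaks, was also highest in CD4, at 1.58 per 10000 against 1.00 in DN, 0.665 in DP, 0.643 in CD8 and 0.695 in T. Of the 54 CD4 counts, 25 were at H2-Aa and 25 at Lyz2, which was at 0 in DP. The other genes went the other way. Cd74 and Itgax were highest in DN and Spi1 in DP, and each was lowest in CD4, with Itgax at 0. The part of such cells in this result was not tested. The promoter of Stard3nl, a gene of the late endosome at the end of the locus, differed little by comparison, with 0.514, 0.669, 0.448, 0.384 and 0.748 per 10000 in DN, DP, CD4, CD8 and T at its main peak.

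The gamma signal also moved with the label series. Leaving out the promoter peaks, Trg held 4.71 (3.81-5.75) per 10000 in DN cells of series 1000, 4.78 (3.67-6.13) in series 2000, 2.25 (1.51-3.24) in series 4000, 0.695 (0.143-2.03) in series 31000 and 1.85 (1.24-2.65) in series 32000. DP cells held 0.7 (0.257-1.52) in series 3000, 0.541 (0.247-1.03) in series 4000 and 0.298 (0.0075-1.66) in series 31000. CD4 cells held 1.69 (1.24-2.25) in series 4000 and 1.27 (0.548-2.5) in series 31000, and CD8 cells held 1.12 (0.761-1.59) and 0.530 (0.0134-2.95). Within series 4000, DN and DP did not overlap, while DN overlapped CD4 and CD8. Of the 3 series that hold DN cells alone, series 1000 and 2000 were the highest and series 32000 lay below DN cells of series 4000, so the size of the difference over all cells cannot be told apart from the series. With the promoter peaks kept, the ratio of DP to DN was 0.403 (0.290-0.550) over all cells, 0.580 (0.339-0.982) in series 4000 and 0.899 (0.369-1.90) in series 31000 and 32000. Of the gamma delta T cell markers, 5 of 6 genes had peaks, and their sum was 1.18 per 10000 in DN, 1.26 in DP, 0.528 in CD4, 0.575 in CD8 and 0.788 in T. Among the 4 sorts, Zbtb16 was highest in DN, Il17re and Maf in DP, Blk in CD8 and Sox13 in CD4. Sox13 and Zbtb16 were at 0 in DP and CD8, and Zbtb16 was at 0 in CD4. The B cell markers, 3 of 5 genes with peaks, were highest in DN as a sum, at 0.606 per 10000 against 0.315 in DP, 0.381 in CD4, 0.135 in CD8 and 0.367 in T, with Cd79a at 0 in DP, CD4 and CD8. The part of gamma delta T cells and of B cells in the Trg result was not tested.

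**Figure D2:**
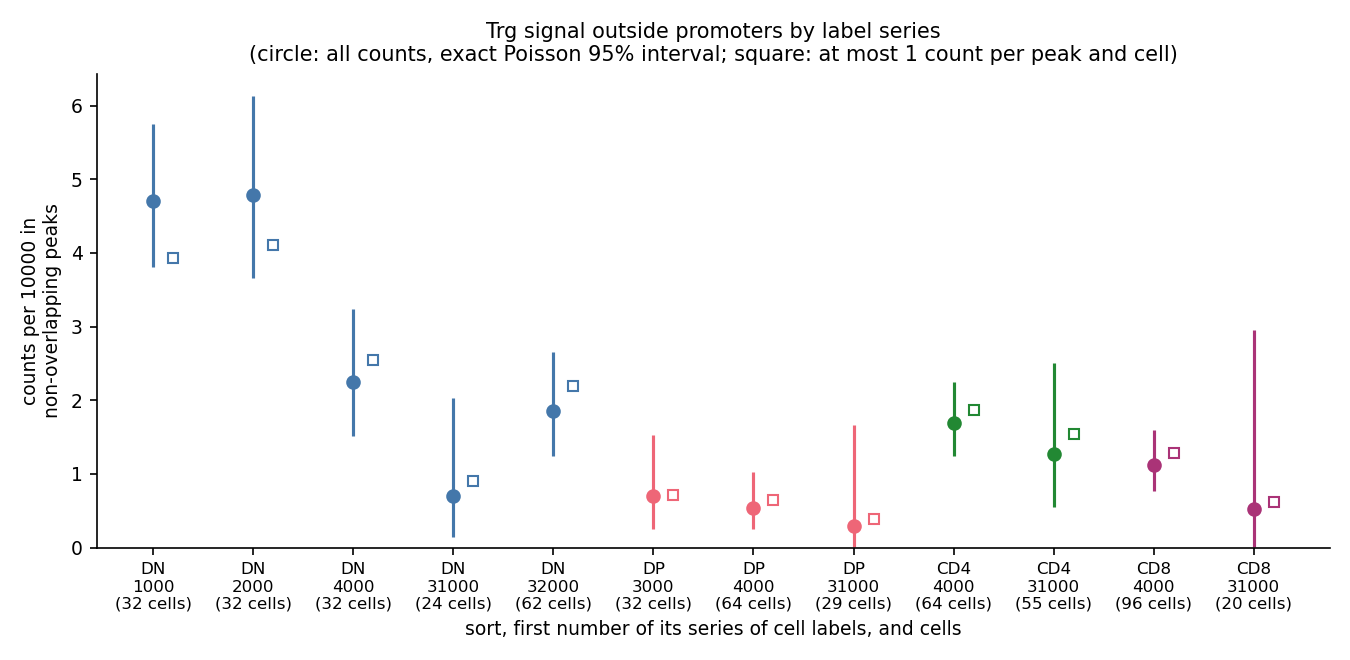
Trg signal outside promoter peaks in each label series of each sort, per 10000 counts in non-overlapping peaks; circles are sums of all counts over cells with exact 95% Poisson intervals, and squares the same with each count set to at most 1. DN cells of series 1000 and 2000 sit at 4.71 and 4.78, DN cells of series 4000 at 2.25, and the DP series between 0.298 and 0.7.

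The order of the sorts in the beta locus was not the same on the sides of Trbd1. Divided at Trbd1, the 26 non-overlapping peaks before it, which cover the V segments other than Trbv31, held 2.68 (2.30-3.11) per 10000 in DN, 2.10 (1.60-2.70) in DP, 3.43 (2.84-4.11) in CD4, 3.52 (2.88-4.26) in CD8 and 2.32 (2.18-2.48) in T. The 6 peaks from Trbd1 to Trbv31 held 4.50 (4.00-5.04) in DN, 6.47 (5.57-7.48) in DP, 5.34 (4.59-6.17) in CD4, 4.77 (4.02-5.63) in CD8 and 6.29 (6.05-6.53) in T. DP was the lowest of the 4 sorts on the V side and the highest on the side of the D, J and constant segments. Intervals of DN and DP overlapped on the V side and did not on the other, and CD4 and CD8 lay above DP on the V side without overlap and overlapped it on the other, so DP was apart from no other sort on both sides. With counts of at most 1 the V side held 2.42 (1.83-3.13) in DP, 3.86 (3.15-4.67) in CD4 and 3.50 (2.80-4.33) in CD8, so that CD8 overlapped DP, and the other side 3.71 (3.20-4.29) in DN and 5.21 (4.33-6.22) in DP, still apart. This division at Trbd1 was chosen after the values were seen. In series 4000 the V side held 3.50 in DN, 2.16 in DP, 3.67 in CD4 and 3.69 in CD8, and the other side 4.58 (3.49-5.91), 6.79 (5.60-8.16), 4.93 and 4.45. There DN and DP overlapped on that side, and DP and CD4 just overlapped on the V side. In series 31000 the order differed on both sides. The V side there held 1.39 (0.510-3.02) in DN, 2.38 (1.03-4.69) in DP, 2.38 (1.33-3.92) in CD4 and 1.06 (0.128-3.83) in CD8, on 2 to 15 counts, and DP was not the lowest. The D, J and constant side held 5.33 (3.38-7.99) in DN, 3.27 (1.63-5.86) in DP, 7.14 (5.21-9.55) in CD4 and 9.54 (5.65-15.1) in CD8, on 11 to 45 counts.

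Of the 32 Trb peaks compared for DP against DN, 10 were called higher in DP, where 12.6% of all peaks were. Of these 10, 9 lay between Trbd2 and just beyond Trbv31, at chr6:41539288-41561419, with peaks that were not called among them. The other was the promoter peak of Ephb6, an ephrin receptor gene after the locus. At the 9 peaks the ratios of DP to DN ran from 2.32 to 4.93, or 1.85 to 3.59 with counts of at most 1. No cell gave more than 6 counts at any of the 9. Neighbours among them lie 728 bp or more apart, and since cells with a count are shared by a median of 40% between neighbouring peaks 600 to 1000 bp apart, they are not 9 independent regions. The 3 Trb peaks called higher in DN lay at Trbv1 (20 counts in DN against 1 in DP), Trbv5 (22 against 3) and Trbv16 (17 against 3), and these were named after their values were seen.

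Of these peaks, 3 were classed with Trbv31, the V segment that lies after the constant genes in inverted orientation and joins by inversion. The 1 with the largest ratio of the 3, at chr6:41556461-41560460, held 31 counts in DN (0.280 per 10000), 54 in DP (1.13), 20 in CD4 (0.358), 38 in CD8 (0.768) and 598 in T (0.934). DP, CD8 and T were high and DN and CD4 low. DP exceeded DN 4.04-fold (2.55-6.50), with 3.68-fold in series 4000 and 2.32-fold in series 31000 and 32000, and 3.07-fold with counts of at most 1. CD4 lay at 0.317 (0.180-0.539) of DP and CD8 at 0.680 (0.437-1.05) of DP, so only the CD4 interval leaves out 1. CD4 lay at 0.467 (0.257-0.822) of CD8. The counts came from 26 DN, 37 DP, 15 CD4 and 27 CD8 cells, with no more than 4 in any of them.

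The beta enhancer interval was near even. Its peak between Trbc2 and Trbv31 at chr6:41552594-41556593, whose central sequence is printed above, held the most counts of the 518 over all groups, with 172 counts in DN (1.55 per 10000), 80 in DP (1.67), 111 in CD4 (1.99), 77 in CD8 (1.56) and 1404 in T (2.19). It had a count in 93 of 182 DN, 53 of 125 DP, 59 of 119 CD4, 48 of 116 CD8 and 729 of 1084 T cells. The ratio of DP to DN was 1.08 (0.817-1.41), of CD4 to DP 1.19 (0.884-1.61) and of CD8 to DP 0.931 (0.672-1.29), all with 1 inside the interval. The next peak toward Trbc2, chr6:41551472-41555471, which overlaps it, was not even, with 0.658 per 10000 in DN, 1.71 in DP, 0.968 in CD4, 1.27 in CD8 and 1.3 in T. DP exceeded DN there 2.60-fold (1.88-3.62), and 3.19-fold in series 4000.

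The D segments of Trb, which are joined first, held 1.39 (1.12-1.71) per 10000 in DN, 2.17 (1.66-2.78) in DP, 1.38 (1.01-1.83) in CD4, 1.12 (0.769-1.57) in CD8 and 1.77 (1.64-1.90) in T. DP was highest, with a ratio to DN of 1.56 (1.11-2.17), and CD4 and CD8 lay at 0.635 (0.425-0.944) and 0.515 (0.327-0.797) of DP. With counts of at most 1 the ratio of DP to DN was 1.22 (0.803-1.84), which includes 1, and in series 31000 and 32000 it was 0.314 (0.0366-1.21), on 2 DP counts. The ratios of CD4 and CD8 to DP also turned in these series, to 3.73 and 4.45 on the same 2 DP counts with 1 inside both intervals, and with counts of at most 1 over all cells they were 0.734 (0.447-1.20) and 0.623 (0.361-1.06), which include 1. The Trbd2 peak at chr6:41539935-41543934 held 0.496, 0.815, 0.340, 0.344 and 0.642 per 10000 in DN, DP, CD4, CD8 and T. The Trbd1 peak at chr6:41531017-41535016 held 0.334, 0.481, 0.502, 0.323 and 0.486. At Trbd1 the ratio to DP was 1.04 (0.580-1.90) for CD4 and 0.673 (0.332-1.33) for CD8, and both intervals include 1. The constant genes Trbc1 and Trbc2 held 0.257 (0.15-0.412) per 10000 in DN, 0.7 (0.428-1.08) in DP, 0.293 (0.141-0.540) in CD4, 0.338 (0.162-0.622) in CD8 and 0.639 (0.564-0.721) in T over 2 peaks, with a ratio of DP to DN of 2.72 (1.35-5.53), and of 2.00 (0.921-4.32) with counts of at most 1. V segments as a class, Trbv31 included, held 2.70, 2.76, 3.40, 3.49 and 2.56.

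**Figure D3:**
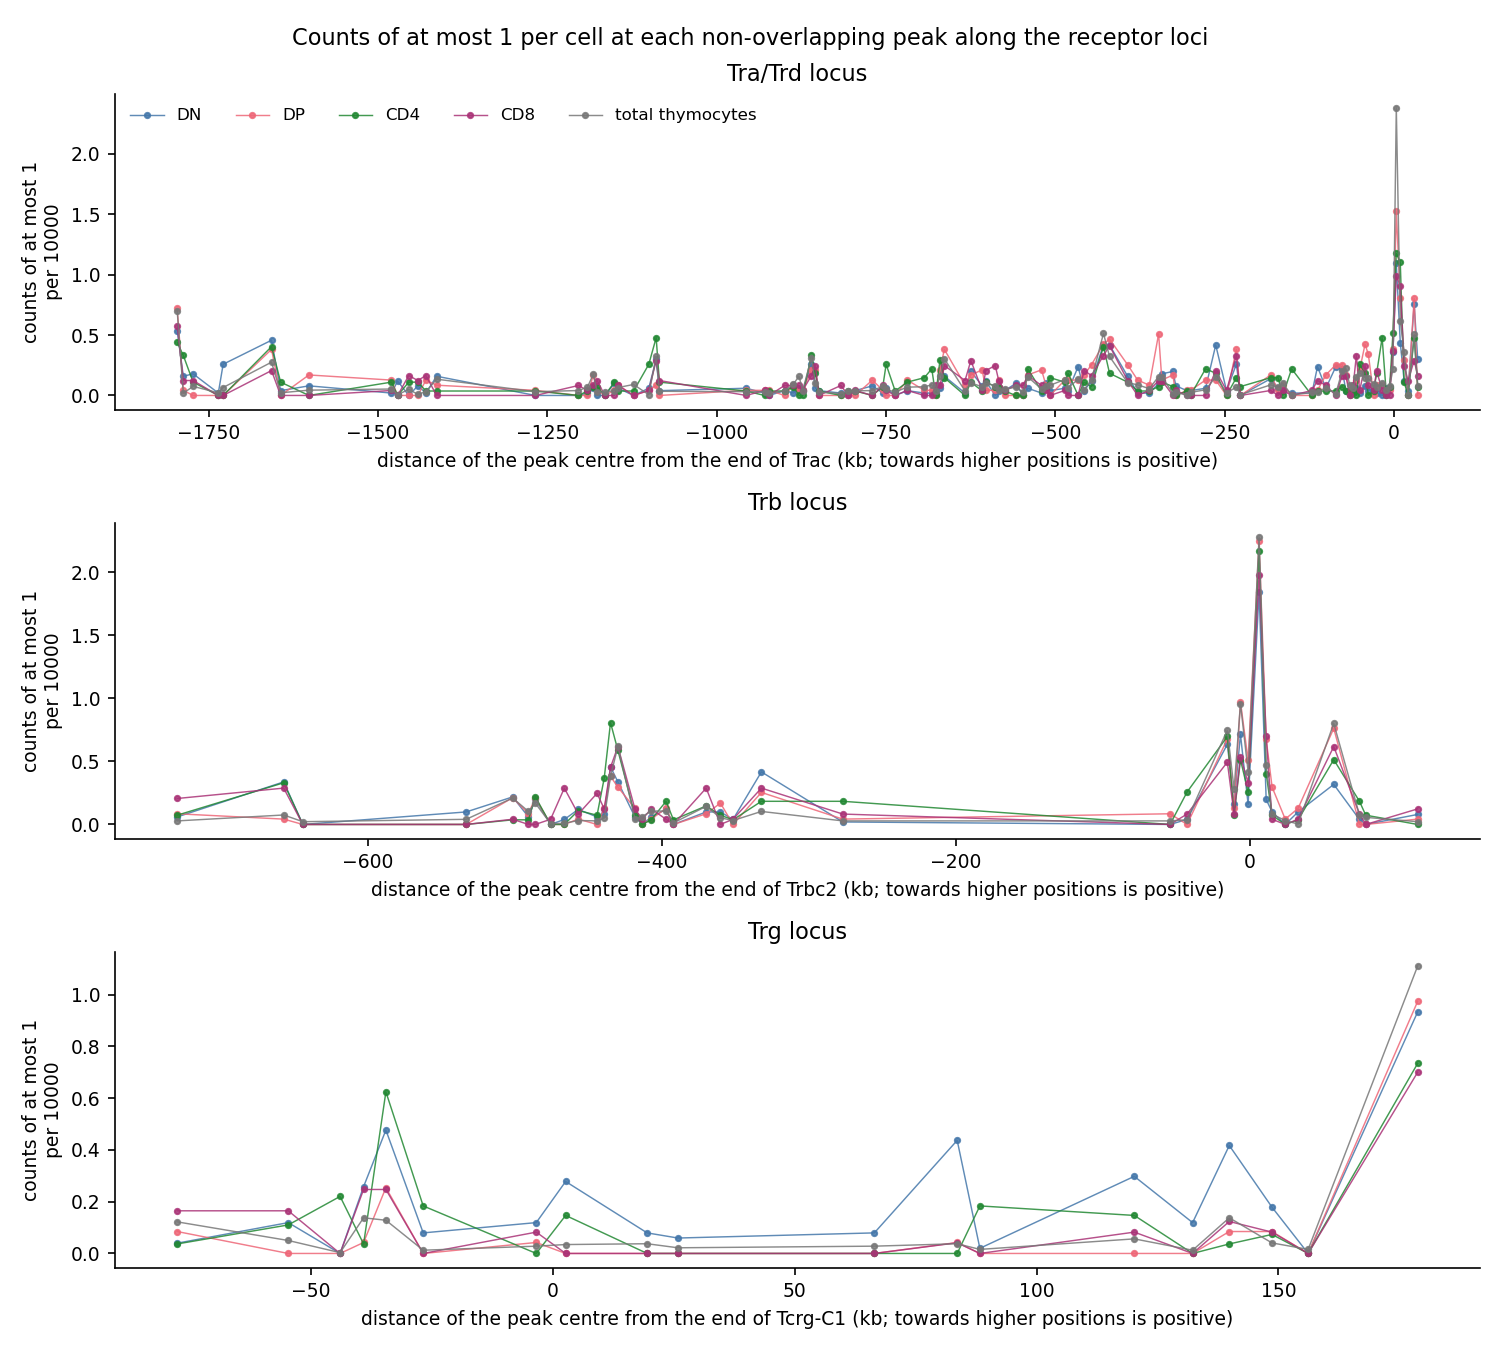
Signal along each locus by group with each count set to at most 1, per 10000, at every non-overlapping peak against its distance in kb from the end of Trac, Trbc2 or Tcrg-C1. The signal of Tra/Trd and Trb gathers near the constant genes, where the 100 kb of Tra/Trd holding Trac reach 3.13 to 4.38 per 10000 in the 5 groups, and in Trg DN is the highest group at the peaks after Tcrg-C1, Tcrg-C2 and Tcrg-C4.

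The alpha enhancer interval lies between Trac and Dad1, a gene used by all cells. Its 2 non-overlapping peaks held 1.83 (1.52-2.19) per 10000 in DN, 2.55 (2.00-3.21) in DP, 3.14 (2.57-3.79) in CD4, 2.20 (1.70-2.80) in CD8 and 4.31 (4.11-4.52) in T. T was highest, and CD4 lay above DN without overlap, but with counts of at most 1 DN held 1.53 (1.21-1.91) and CD4 2.28 (1.75-2.92), which overlap. The ratio of DP to DN was 1.39 (1.03-1.88), and 1.52 (1.06-2.18) with counts of at most 1. DN cells themselves ran from 0.694 (0.379-1.16) in series 1000 to 3.94 (2.29-6.30) in series 31000, a wider span than that between the sorts, and in series 31000 and 32000 together the ratio of DP to DN was 0.957 (0.416-1.95). The main peak, chr14:54225610-54229609, whose centre is printed above, held 83 counts in DN (0.749 per 10000), 50 in DP (1.05), 59 in CD4 (1.06), 31 in CD8 (0.627) and 1513 in T (2.36), with a count in 55, 36, 32, 24 and 760 cells. T exceeded DP 2.26-fold (1.71-3.06), and 1.65-fold with counts of at most 1, but T cells carried other label numbers than the sorts and the part of that in the difference was not tested. Further toward Dad1, the peak at chr14:54231076-54235075 held 10 counts in DN, 3 in DP, 17 in CD4, 15 in CD8 and 101 in T. The ratio of CD4 to DP was 4.86 (1.40-25.9), and CD8 and DP together were too thin for a ratio.

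The delta segments were thin. The peak between Trdj2 and Trdc, where the delta enhancer lies, held 14 counts in DN (0.212 per 10000), 6 in DP (0.210), 1 in CD4 (0.0293), none in CD8 and 5 in T (0.0122), in 12, 6, 1, 0 and 5 cells. The ratio of DP to DN was 0.990 (0.312-2.74), and CD4, CD8 and T held the lowest values, with CD4 at 0.140 (0.0030-1.15) of DP, an interval that includes 1, and at 0.138 (0.0033-0.909) of DN. With 0 counts in CD8, the upper end of its ratio was 0.821 to DP and 0.674 to DN. T lay at 0.0583 (0.0141-0.229) of DP. Of the 14 counts in DN, 10 came from series 1000. The D and J segments of Trd held 0.298 (0.167-0.491) per 10000 in DN, 0.424 (0.203-0.779) in DP, 0.0735 (0.0089-0.265) in CD4, 0.0824 (0.01-0.298) in CD8 and 0.0783 (0.0506-0.116) in T with counts of at most 1. With all counts, DP rose to 1.36, since 30 of the 33 counts at the Trdd2 and Trdj1 peak, chr14:54121623-54125622, came from 1 cell. The constant gene Trdc held 0.242, 0.315, 0.147, 0.305 and 0.206 per 10000 in DN, DP, CD4, CD8 and T, with all intervals overlapping. A peak over Trdc beside Trdv5, chr14:54146636-54150635, held 15 counts in DN, none in DP, CD4 or CD8 and 31 in T.

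**Figure D4:**
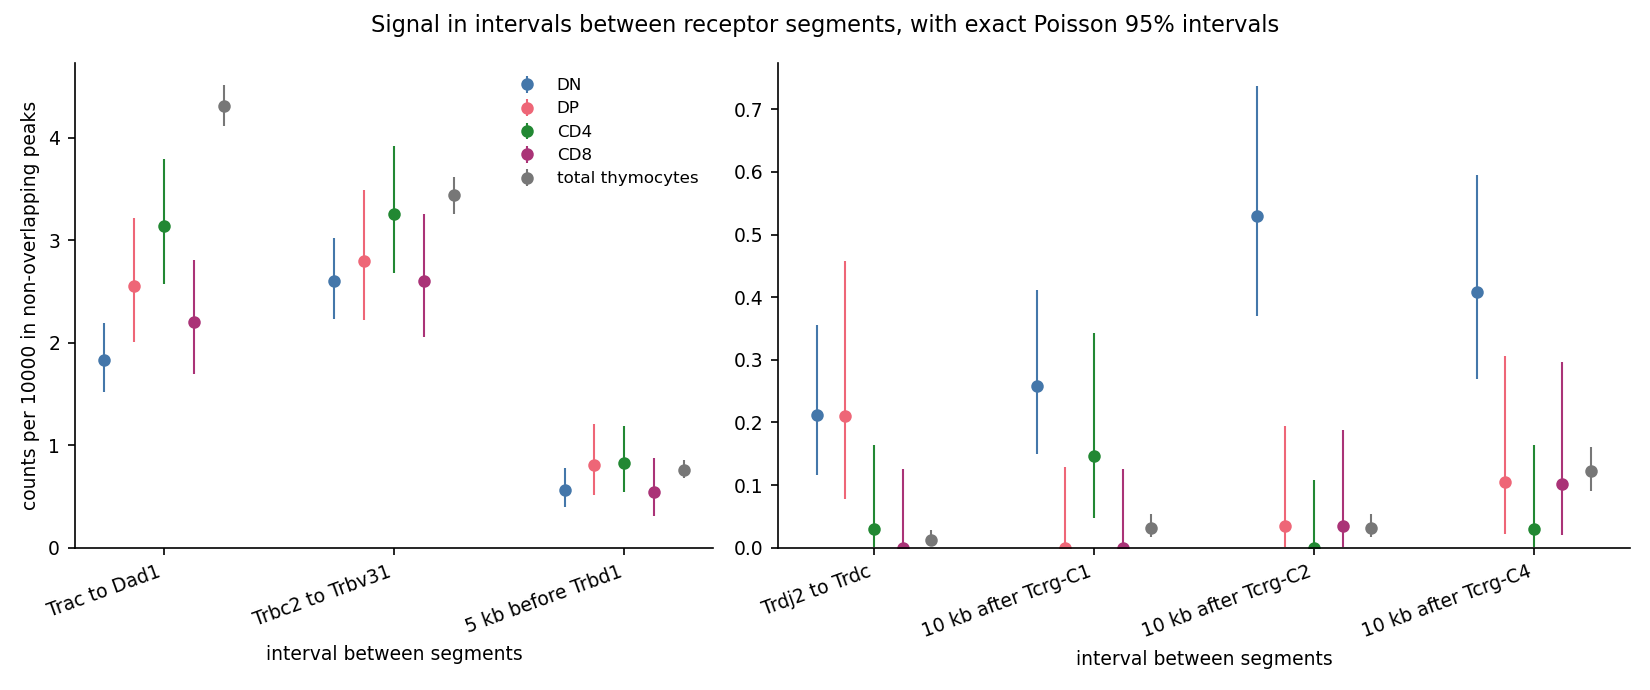
Signal of the intervals between segments in the 5 groups, per 10000 counts in non-overlapping peaks, as points with exact 95% Poisson intervals. The intervals Trac to Dad1 and Trbc2 to Trbv31 hold 1.83 to 4.31 in every group, and the intervals after the Trg constant genes hold 0.257 to 0.530 in DN and no more than 0.147 in the other groups.

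The alpha J segments, the targets of joining at the DP stage, were low in DN. With counts of at most 1, the 12 non-overlapping Traj peaks held 0.477 (0.305-0.709) per 10000 in DN, 1.61 (1.14-2.21) in DP, 1.29 (0.895-1.79) in CD4, 1.24 (0.834-1.76) in CD8 and 1.39 (1.27-1.53) in T. Over all cells DN stood below the other 4 groups without overlap, and these overlapped one another. DN cells ran from 0.0813 in series 32000 and 0.140 in series 1000 to 1.07 in series 2000. In series 31000 DN held 0.301, on 1 count, against 0.770 in DP, 0 in CD4 and 0.616 in CD8. The ratio of DP to DN was 3.38 (1.97-5.89). In series 4000 DN held 0.880 and DP 1.65 per 10000, with a ratio of 1.87 (0.835-4.6), so the interval there includes 1. With all counts the class held 0.803, 4.20, 8.51, 1.18 and 2.60 in DN, DP, CD4, CD8 and T, and the order of CD4 and DP turned, with CD4 over DP at 2.03 (1.63-2.53) against 0.799 (0.490-1.3) with counts of at most 1. Before Traj61, the most distal J segment, where the germline promoter of the J cluster lies, the non-overlapping peak held 2 counts in DN, 5 in DP, 1 in CD4, 5 in CD8 and 85 in T. The overlapping peak nearest to Traj61, chr14:54152622-54156621, held 56 counts in DN, 50 of them in 1 cell, and none in DP, CD4 or CD8.

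The V segments of Tra and Trd, spread over most of the locus, held 5.82 (5.25-6.43) per 10000 in DN, 7.24 (6.29-8.30) in DP, 6.04 (5.25-6.93) in CD4, 5.68 (4.86-6.61) in CD8 and 6.46 (6.21-6.71) in T over 66 peaks. The spread between sorts was small, with a ratio of DP to DN of 1.25 (1.05-1.48) and of CD8 to DP of 0.785 (0.636-0.967), or 0.808 (0.645-1.01) with counts of at most 1, which includes 1, and in series 31000 and 32000 these turned to 0.397 (0.178-0.777) and to 1.38, the latter with 1 inside its interval. Named V peaks differed more. The peak at Trav11n and Trav6n-6, chr14:53132950-53136949, held 19 counts in DN, 3 in DP, 19 in CD4, 9 in CD8 and 143 in T, with CD4 over DP at 5.43 (1.60-28.6). Trav1, the first V segment, held 0.289, 0.460, 0.251, 0.384 and 0.398 per 10000 in DN, DP, CD4, CD8 and T. The Trdv2-2 peak at chr14:53959047-53963046, named after its values were seen, held 27 counts in 21 DN cells and 3 in DP.

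High counts of single cells gathered in Tra/Trd. A single cell gave 10 or more counts at a peak in 61 cases among the 518 peaks, in 56 cells, and these join to 59 sites when cases of 1 cell within 1000 bp are joined. Of the 59 sites, 44 lay at alpha J segments, in 43 cells and at 30 peaks, 8 at Tra/Trd V segments, 2 at Trd D and J segments, 3 elsewhere in Tra/Trd and 2 at Trg V segments. None lay at the 141 Trb peaks, where the highest count of a cell was 9. Of the 96 Traj peaks, 32 (33.3%) had such a count in some cell, against 44 of the 518 peaks (8.49%) and 1376 of the 137799 peaks elsewhere (0.999%). At a lower bound of 5 counts, 0.767% of the nonzero counts of a cell at a peak of these loci passed, against 0.461% elsewhere, and at a bound of 50 the shares were 0.0872% against 0.0098%.

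These counts were narrow and spread over many segments. The highest was 133 counts of 1 T cell at the peak over Traj47, followed by 128 of 1 T cell at the peak over Traj12, 127 of 1 CD4 cell near Trav12-1 and 126 of 1 CD4 cell at the peak over Traj21. At 57 of the 59 sites the same cell had 3 or fewer counts at any peak 1 to 5 kb away. Of the 42 peaks with a site, 14 had one in more than 1 cell, and 3 cells had 2 sites. One of these was a T cell with 69 counts at Trav15-1-dv6-1 and 21 at the peak centred on Traj39. The cells held 1085 to 37008 counts in all peaks, with a median of 6266.5, so they were not only the deepest cells. Such counts made up 6.09% of the member counts in DN, 9.25% in DP, 17.5% in CD4, 2.36% in CD8 and 7.44% in T, against 2.85%, 1.48%, 1.03%, 0.833% and 1.37% over all peaks, where DN was highest, and 34.8% of all counts at Traj peaks. The megabase from 54 Mb of chromosome 14 ranked first of 2459 megabases by non-overlapping peaks with such a count, with 10 of 89, ahead of 6 of 33 in the next, which is the higher share. By cells it was not first, since it held 18 cells with such a count, up to 128, and the megabase from 110 Mb of chromosome 9 held 62 cells at 4 peaks, up to 243. The cause of these counts was not tested.

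**Figure D5:**
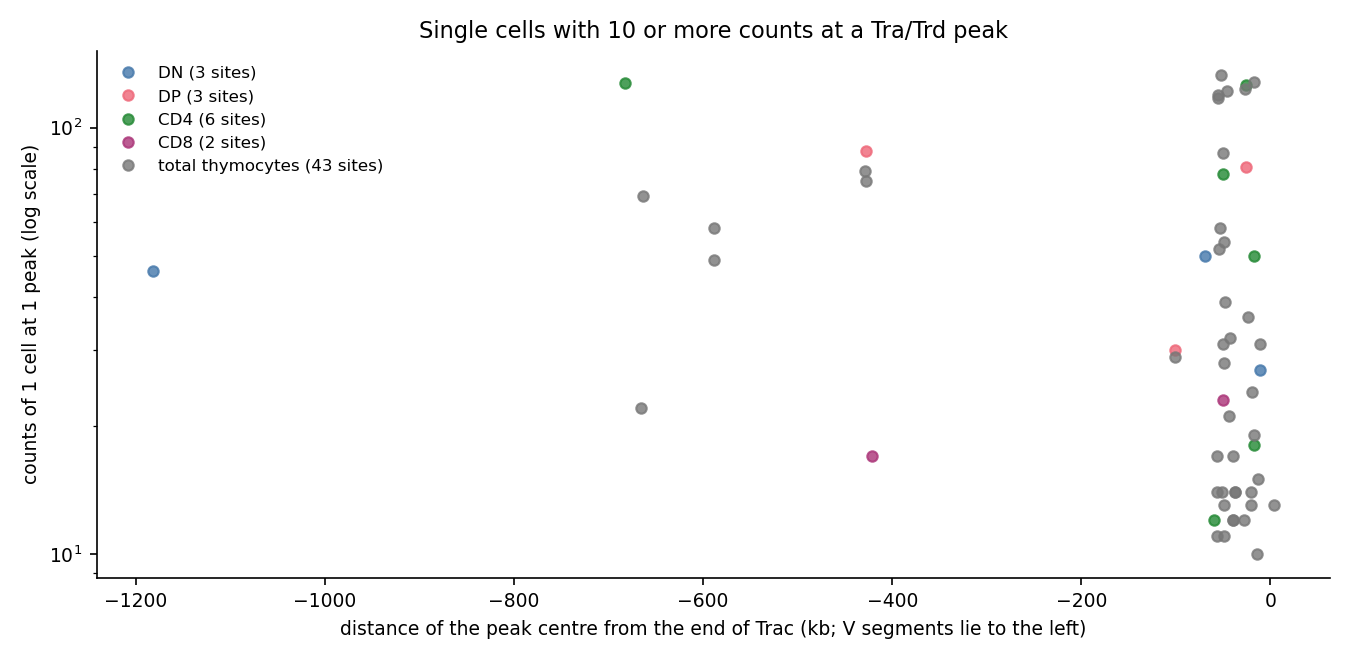
Counts of 10 or more from a single cell along Tra/Trd, on a log axis, against the distance in kb of the peak from the end of Trac, coloured by group. Most points gather over the alpha J segments just before Trac and reach 133, with few over the V segments.

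Genes of the recombination machinery and of the receptor complex were read in the same cells at peaks near their start sites. Of 19 listed genes, 16 had 20 or more counts in DN and DP together, 5 were 2-fold or more higher in DP, as 12.6% of all single peaks were, and none in DN. These were Rag1 and Rag2 (the recombinase) and the T cell factors Gata3, Tcf7 and Lef1. Rag1 held 0.363 per 10000 in DN, 1.40 in DP, 0 of 340886 counts in CD4 (up to 0.0880), 0.711 in CD8 and 1.17 in T. For CD4 against DP, 3 of 15 genes were higher in DP (Rag1, Rag2 and Bcl11b; 14.6% of all peaks) and none in CD4, and for CD8 against DP, 3 of 15 were higher in DP (Cd247, Gata3 and Dad1; 11.7% of all peaks) and none in CD8. For CD4 against CD8, Rag1 and Rag2 were higher in CD8 among 13 genes, a share near the 10.3% of all peaks. In the single library of scRNA-seq from the same tissue, with 1993 cells as deposited and no doublet removal here, Trbc2 was above 0 in 99.9% of cells, Trbc1 in 92.0%, Trac in 76.9%, Trdc in 35.8%, Tcrg-C2 in 12.0%, Tcrg-C1 in 11.6% and Tcrg-C4 in 8.28%.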

How the data were processed

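Open chromatin was measured by scATAC-seq in thymocytes, and RNA in 1 scRNA-seq library. Per the study's methods, adapters were trimmed before alignment by Bowtie2, Picard took out duplicates, and MACS2 found peaks in the cells merged. The authors deposited unnormalised counts for each cell at each peak. The authors deposited the RNA as log2 values (the submitters' processing notes name Cell Ranger 1.3.1), of which only values above 0 were counted. The build of the chromatin table was not given in the sources used here. It was taken as GRCm38 (annotation GENCODE vM21), since 22.5% of peaks were centred within 2 kb of a protein-coding start against 6.21% after a shift of 100000 bp. Neighbouring peaks shared cells over short distances only, with a median of 0% at 2000 to 4000 bp, so counts appear to come from windows narrower than the listed 4000 bp. Of 1988 cells, 362 value columns were not used, because their labels gave no sort or only a single number. No 2 used cells shared all counts.

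Peaks were classed by the first of C, D, J and V segments overlapped, then as promoter (centred within 2 kb of a protein-coding start) or other. Sums used peaks chosen not to overlap. Intervals were exact Poisson, exact binomial and exact conditional (95%), and a count of 0 was given the limit of 3 counts. PCR reads are not independent molecules, so intervals cover counting error only. Peaks named were those centred in an enhancer interval or over a C, D or first J segment, the 3 highest per locus and up to 3 with the largest ratio per direction and comparison, with 20 or more counts and the same direction in label series 4000 and in 31000 and 32000. From these, the ones described were selected. An item withheld for evaluation is not reported here. Members, gene lists and tests were chosen with earlier results of these data known. Scripts were tested on simulated data and ran in Python 3.11.15 with numpy 2.4.6, scipy 1.17.1, pandas 2.3.3 and matplotlib 3.10.9.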

Additional observations from a re-analysis of the deposited data

How the results depend on the processing

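No replicate was left out, since each sort was 1 sample. No paired analysis was possible because no result came from a test between replicates. Settings with peak centres 1000 bp or more apart, or with a label series and counts of at most 1 together, were chosen after seeing the data. Total thymocytes with a single label number were not run in place of the others, and series 31000 and 32000 gave no value where a sort had 0 counts. The cause of the changes below was not tested.

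In series 31000 and 32000 the DP to DN ratio turned for Tra/Trd V segments (0.397, or 0.513 with counts of at most 1), the Trac to Dad1 interval (0.957) and Trb D segments (0.314, or 0.430). It moved to 0 for Trdc with both counts and, with promoter peaks kept, to 0.899 for Trg. Outside promoter peaks lay 1 of the 8 DP counts in Trg, all from series 31000. For DN these were 3 of 9 counts in series 31000 and 29 of 44 in series 32000. In series 31000 and 32000, the CD8 to DP ratio of Tra/Trd V segments turned to 1.38 (1.60 with counts of at most 1), that of Trb D segments to 4.45 (4.00), and the CD4 to DP ratio of Trb D segments to 3.73 (2.49). In series 4000 the DP to DN ratio was 0.580 for Trg, 3.87 for Trdc and 0.773 for Trb V segments (0.751 with counts of at most 1). With all peaks it was 1.68 for Tra/Trd V segments and 0.252 for Trg, and with centres 1000 bp or more apart it was 0.284 for Trg.

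For the alpha J segments the DP to DN ratio was 3.38 with counts of at most 1, 2.99 with all peaks, 2.57 with centres 1000 bp or more apart (2.42 with counts of at most 1) and 1.87 in series 4000 with counts of at most 1. Their CD4 to DP ratio turned to 0.799 with counts of at most 1, 0.980 with centres apart as well and 0.965 in series 4000 as well. In series 31000 and 32000 it was 0 under both counts, on 0 CD4 and 2 DP counts. Their CD8 to DP ratio was 0.768 with counts of at most 1, 0.589 with all peaks, 0.428 with centres apart (0.840 with counts of at most 1), 0.777 in series 4000 with counts of at most 1, and 0.890 in series 31000 and 32000 (0.8003).

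The number of peaks past 2-fold is given with the number compared and the share of all peaks past it. Those higher in DP than in DN were 6 of 12 in series 4000 (15.7%), 2 of 8 in series 31000 and 32000 (12.0%), 8 of 46 with counts of at most 1 (10.3%), 6 of 34 without overlap (11.7%) and 7 of 24 with 40 or more counts (9.38%), and those higher in DN were 0 (3.93%), 3 (22.7%), 7 (8.60%), 9 (13.0%) and 5 (7.26%) of the same. In series 31000 and 32000, with counts of at most 1 and with 40 or more counts, those higher in CD4 than in DP were 0 of 1, 3 of 26 and 3 of 16 (33.4%, 10.5% and 8.31%) and those lower 0, 1 and 3 (13.8%, 12.0% and 8.80%), or 3 of 23 without overlap (14.1%). Those higher in CD8 than in DP were 1 of 1, 1 of 24 and 0 of 13 (13.4%, 5.62% and 4.01%), or 1 of 17 without overlap (8.66%), and those lower 0, 1 and 4 (32.8%, 8.66% and 6.99%). Those higher in CD4 than in CD8 were 0 of 2, 2 of 25 and 4 of 13 (21.7%, 8.36% and 6.69%) and those lower 1, 0 and 1 (7.69%, 7.00% and 5.09%), or 0 of 20 without overlap (10.2%).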
